A study of Mus musculus with 40 samples.

Results

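The 39 genes described here carry glucose into the muscle fibre, store it as glycogen, break the store down again and turn glucose into pyruvate and lactate. They were taken by gene symbol from a list of glucose transporters, glycolytic enzymes and glycogen enzymes, and all 39 were found among the 12573 genes of the table, so none was lost to a filter on low values. There were 3 glucose transporters, and 9 genes belonged to the steps down to the triose phosphates, 7 to the steps from there to pyruvate, 4 to lactate, 8 to glycogen synthesis, 4 to glycogen breakdown and 4 to branches that leave or re-enter the pathway. RNA came from the gastrocnemius, a mixed calf muscle, of 40 female C57BL6/J mice in 5 groups of 8, each mouse giving 1 library. The 1wk, 2wk, LT and HT mice had received 1 M Lewis lung carcinoma (LLC) cells, a transplantable mouse lung tumor, at 8 weeks of age, and the PBS mice had received saline. The 1wk and 2wk mice were 9 and 10 weeks old and had carried the cells for 1 and 2 weeks. LT (low tumor, at most 1.2 g) and HT (high tumor, at least 2 g) mice were 11 to 12 weeks old at 3 to 4 weeks, and the week of each mouse is not in the labels. The PBS mice were 12 weeks old, so age and tumor cannot be told apart in the 1wk and 2wk comparisons. LT and HT were formed by tumor mass, so these groups may also differ in their mix of weeks.

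Glucose enters a muscle fibre mainly through GLUT4, which insulin and contraction move to the surface, and is trapped as glucose phosphate by hexokinase. From there it either goes down glycolysis, where phosphofructokinase and pyruvate kinase are the controlled steps, or is turned by phosphoglucomutase and UDP-glucose pyrophosphorylase into the precursor of glycogen. Fast fibres hold most of the glycolytic enzymes and export lactate, and many steps have a muscle isoenzyme beside one found in most other cells.

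Levels are the deposited values, which are estimated gene counts divided by a size factor of the library. They are given as the lowest, the median and the highest of the 8 mice of a group. Fold changes are differences of log2(value + 1) in a single limma fit of the 5 groups, with the standard error as SE, and a gene was called where its p, adjusted by Benjamini-Hochberg over all 12573 genes, was under 0.05. Nothing in the labels ties a library to more than 1 mouse. The p-values set a difference against 1 spread between mice per gene, pooled over the 5 groups. For some genes HT mice spread more widely, as for Ugp2 (coefficient of variation 51.3% in HT and 5.09% in PBS mice). The pooled spread is then smaller than that of the HT mice.

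Nearly all change among the 39 genes was in HT mice, and most of it was downward. Against PBS, 19 of the 39 genes were lower in HT mice (48.7%) and 3 were higher (7.69%), where 16.5% of all genes were lower and 16.5% higher. The median log2 fold change of the 39 genes was -0.34, against 0.00 for all genes. Against LT mice, 16 were lower in HT (41%, with 10.5% of all genes) and 2 were higher (5.13%, with 9.94% of all genes), at a median of -0.27 against 0.01. In the other 3 groups with LLC cells a single gene was called. In 1wk mice 1 gene was lower, Pcx, and 0 were higher (0.374% and 0.151% of all genes). In 2wk mice 0 were lower and 0 higher (0.0477% and 0.0318% of all genes), and in LT mice again 0 and 0 (0.39% and 0.247% of all genes). At an unadjusted p under 0.05 there were 4 of the 39 in 1wk mice (10.3%), 5 in 2wk mice (12.8%) and 3 in LT mice (7.69%), where all genes gave 11.6%, 4.66% and 12.3%. In a limma fit with library weights, calls were made for Pgm2 higher in 1wk, Slc16a1 higher and Pcx and Slc16a3 lower in 2wk, and Pcx lower in LT mice.

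HT mice were not alike. Mice C48, C54 and C55 held the 3 lowest HT values in 15 of the 39 genes (Slc2a4, Pfkfb1, Tpi1, Pgk1, Pgam2, Eno3, Ldha, Ldhb, Slc16a3, Gys1, Phka1, Phkb, Phkg1, Gpd1 and Pdha1) and the 3 highest in Ugp2. These were 38.5% and 2.56% of the 39 genes, where 10.5% and 10.6% of all genes had their 3 lowest and 3 highest HT values in these mice. Without them 9 genes were lower and 2 higher than in PBS, where 8.63% of all genes were lower and 7.5% higher, and the median of the 39 was -0.14. The 9 were Pfkm, Tpi1, Pgam2, Eno3, Pkm, Slc16a3, Pgm1, Gpd1 and Pcx, and the 2 were Gyg and Ppp1r3a. Against LT mice 2 were then lower, Slc2a4 and Slc16a3, and 0 higher (1.96% and 1.22% of all genes). The 3 mice are not a group of the study. They were singled out with earlier results of these data known, so the shares above are a description and not a test. For the 39 genes, the values without the 3 mice are given beside each gene whose call is lost without them. Against LT, Pfkm, Gapdh, Pgam2, Pkm, Ldha, Gyg, Phka1, Phkg1, Pgm1, Ugp2 and Gpd1 also lost their calls with all 8 HT mice kept. This was so both with only the 2 groups in the fit and with library weights, as for Phka1, Eno1 and Fbp2 against PBS.

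**Figure D1:**
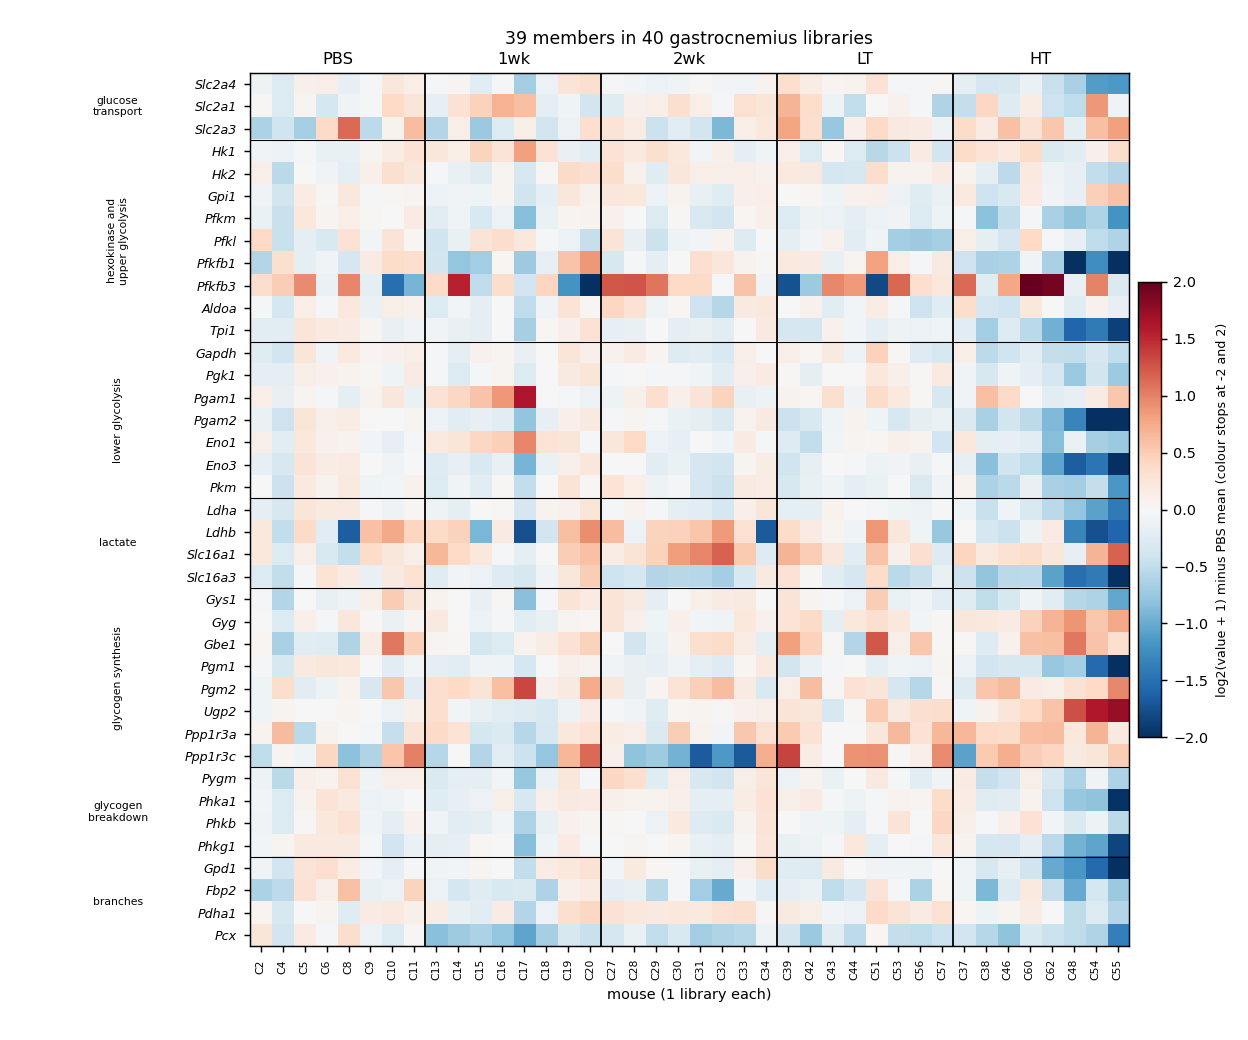
Each column is 1 mouse and each row 1 of the 39 genes, ordered by step, and the colour is log2(value + 1) minus the mean of the 8 PBS mice. The blue cells of the lower steps gather in the HT block, deepest in C48, C54 and C55 at its right end, while Ugp2 is red in the same 3 mice and Pcx is blue in nearly all mice with LLC cells.

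Depth ran along the groups. PBS, 1wk and 2wk libraries held 15.66 to 28.63 M reads and LT and HT libraries 3.48 to 7.73 M, as estimated from the worth of 1 read, with 0.42 to 0.73 for the deeper libraries and 1.59 to 3.38 for LT and HT. Depth and group therefore cannot be told apart for LT and HT against PBS, whereas HT and LT libraries were of like depth (4.14 to 7.73 and 3.48 to 7.23 M). The muscle label held in every library by the summed level of 12 of 12 skeletal muscle fibre markers. The sums were 1524512 to 2519305 in HT and 1705905 to 2766713 in PBS mice. They were 1468924 (mouse C17) to 2439182 in 1wk, 1803892 to 2743209 in 2wk and 1931602 to 2337447 in LT mice. Of the muscle fibre markers 2 of 12 were lower in HT than in PBS, as were 5 of 12 fast fibre markers. The fast fibre sum was 1614753 to 2421538 in HT and 1836023 to 2917069 in PBS mice. Of all genes 16.5% were lower and 16.5% higher in HT than in PBS. Without C48, C54 and C55 these shares were 8.63% and 7.5%. Against LT they were 10.5% and 9.94% with all HT mice kept, and 1.96% and 1.22% without the 3 mice. Blood cell markers moved with the HT group. Of 8 erythroid markers measured (of 13 listed) 7 were higher and 1 lower in HT, with sums of 51932 to 171327 in HT and 18864 to 44517 in PBS mice. All 5 neutrophil markers measured (of 13 listed, with Ly6g, Elane and Mpo not among the genes of the table) were higher, with sums of 632 to 2602 in HT and 27.3 to 56 in PBS mice. Of 11 macrophage markers 4 were higher (sums 1975 to 5471 in HT and 1192 to 2979 in PBS mice), of 12 endothelial markers 8 (sums 5373 to 6692 in HT and 3537 to 6152 in PBS mice), and of 10 fibroblast markers 0 were higher and 2 lower (sums 5692 to 15586 in HT and 7279 to 14668 in PBS mice). Of 10 adipocyte markers 3 were higher and 1 lower (sums 36181 to 69906 in HT and 56809.6 to 73932 in PBS mice), and of 10 slow fibre markers 0 were called in either direction (sums 6507 to 44706 in HT and 3970 to 46094 in PBS mice). No value of the whole table was 0, so a marker above 0 does not show that a cell type was present in a library. Without C48, C54 and C55 the counts against PBS, higher and lower, were 0 and 1 for the muscle fibre list, 0 and 2 for the fast fibre, 7 and 1 for the erythroid, 5 and 0 for the neutrophil, 3 and 0 for the macrophage, 8 and 0 for the endothelial, 2 and 0 for the adipocyte and 1 and 0 for the fibroblast list. Against LT mice the counts higher and lower in HT were 0 and 2 for the muscle fibre list, 0 and 0 for the slow fibre, 0 and 5 for the fast fibre, 7 and 0 for the erythroid, 5 and 0 for the neutrophil, 1 and 0 for the macrophage, 6 and 0 for the endothelial, 1 and 0 for the adipocyte and 0 and 4 for the fibroblast list. The part of these cells in the values below was not tested, and in whole muscle fewer cells of a type and less RNA per cell cannot be told apart.

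Promoter stretches of 7 called genes are shown because several glycolytic promoters are textbook sites of hypoxia-inducible factors and of E-box factors. RefSeq promoters (build GRCm38.p6, 250 bases before to 50 after a start site) matched 36 of the 39 symbols and 20 of the 22 genes called in HT against PBS. Slc2a4, Slc2a3 and Gpd1 were not matched. A gene may have several promoters, so shares are given over promoters. On either strand the hypoxia core ACGTG stood in 10 of 28 promoters of genes lower in HT (35.7%, at Pfkm, Gapdh, Pgk1, Pkm, Ldha, Slc16a3, Pgm1, Fbp2 and Pcx), in 2 of 4 of genes higher in HT (50%, at Gyg and Ugp2) and in 12 of 20 of genes not called (60%). It stood in 25.2% of the promoters of genes in the table and in 19.6% of all promoters. The E-box CACGTG, which contains the hypoxia core on both strands, stood in 4 of the 28 (14.3%, at Pfkm, Ldha, Fbp2 and Pcx), 1 of the 4 (25%, at Gyg) and 3 of the 20 (15%), with 9.99% of the promoters of genes in the table and 7.15% of all promoters. The FoxO core GTAAACA stood in 0 of these promoters, in 2.54% of those of genes in the table and in 3.65% of all. Matches were found at genes that were lower, higher and not called. The stretches were chosen as examples after the matches were seen, and they run 5′ to 3′ on the strand of the gene, with the matches in capitals.
Ldha, lower in HT, chr7:46845644-46845789, plus strand, with 2 E-boxes and a further hypoxia core: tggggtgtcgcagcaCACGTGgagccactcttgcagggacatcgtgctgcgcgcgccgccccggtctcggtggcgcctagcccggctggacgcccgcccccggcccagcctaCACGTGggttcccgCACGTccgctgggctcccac
Pgk1, lower in HT, chrX:106186935-106186988, plus strand, with 2 cores in opposite orientation: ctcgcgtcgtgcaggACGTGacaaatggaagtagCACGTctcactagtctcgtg
Slc16a3, lower in HT, chr11:120949025-120949066, plus strand, with 2 cores in the same orientation: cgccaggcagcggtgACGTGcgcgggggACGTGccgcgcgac
Pfkm, lower in HT, chr15:98092438-98092473, plus strand, with an E-box: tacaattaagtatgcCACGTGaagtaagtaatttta
Pgm1, lower in HT, chr4:99929228-99929289, plus strand, with 2 cores: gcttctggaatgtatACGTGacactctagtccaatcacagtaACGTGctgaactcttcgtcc
Fbp2, lower in HT, chr13:62858422-62858457, minus strand, with an E-box: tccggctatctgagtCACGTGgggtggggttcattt
Ugp2, higher in HT, chr11:21371417-21371451, minus strand, with 1 core: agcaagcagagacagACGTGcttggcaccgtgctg

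Levels of the 39 genes differed widely. Per kilobase of the canonical GENCODE transcript, the PBS median was 132931 for Aldoa, which encodes muscle aldolase, 55399 for Eno3, the muscle enolase, and 27249 for Pygm, the muscle glycogen phosphorylase. Ldha (27159 per kb) and Pgam2 (26765 per kb) came next, and these first 5 made up 70.0% of the summed per-kb medians of the 39 genes. The isoenzymes of other cell types stood at the other end. Pfkl was at 32.6, Hk1 at 21, Slc2a1 at 20.4, Slc2a3 at 14.5 and Pgm2 at 11.9 per kb in the PBS median. Gapdh stood at 5358 per kb, and like Aldoa, Tpi1, Pgk1, Pgam1, Eno1, Pkm and Ldha it has processed pseudogene copies between which the counting may have split its reads, so its level and those of the others named here are uncertain. Pfkm, Pfkfb1, Tpi1, Phkg1, Ugp2, Pdha1 and Pcx each overlap a gene of the table on the other strand in GENCODE, and the sources used here do not give whether reads were counted by strand.

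**Figure D2:**
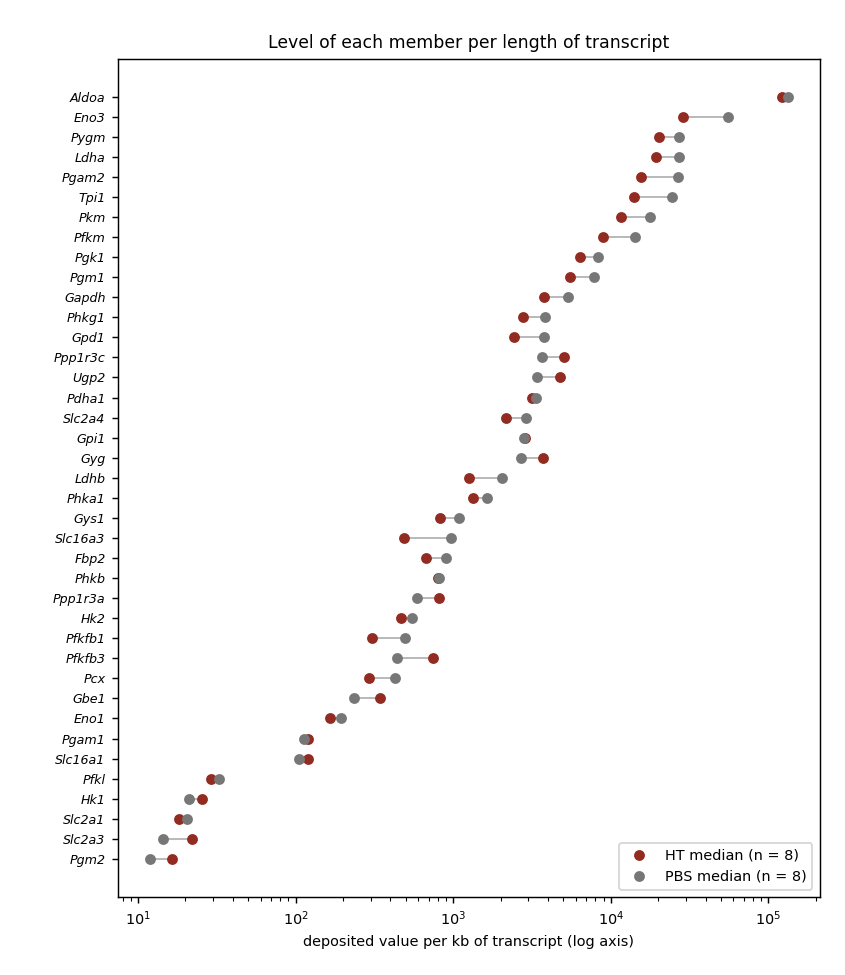
The median deposited value per kilobase of transcript is drawn for HT and PBS mice (n = 8 each) on a log axis, 1 row per gene. Aldoa sits alone at the top with overlapping points, and the HT point lies left of the PBS point for each of the next 10 genes.

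Of the 3 glucose transporters only Slc2a4, which encodes GLUT4, was called, and it was lower in HT mice. Slc2a4 had 3361, 5656 and 6768 (lowest, median and highest) in HT mice, 7226, 7759.6 and 9419 in LT mice and 6169, 7598 and 8658 in PBS mice. All 8 HT mice lay below the lowest LT mouse, and 6 lay below the lowest PBS mouse. The difference was significant against LT (log2 fold change -0.65, SE 0.12, adjusted p = 0.000426) and against PBS (log2 fold change -0.54, SE 0.12, adjusted p = 0.000874). Without C48, C54 and C55 it stayed called against LT (log2 fold change -0.40, adjusted p = 0.029) and not against PBS (log2 fold change -0.29, adjusted p = 0.0568). Slc2a4 was the only one of the 39 genes in which HT and LT mice did not overlap, all HT mice being lower, and 0.811% of all genes were like it, with 0.231% in the other direction. Slc2a1, the transporter of most resting cells, ranged from 63.5 to 166 in HT mice and from 70.5 to 119.8 in PBS mice. Slc2a3, a high-affinity transporter best known from neurons, ranged from 55.6 to 113 in HT and from 39.7 to 141 in PBS mice (log2 fold change 0.40, SE 0.22, adjusted p = 0.16), and was called higher only without PBS mouse C8 (log2 fold change 0.56, adjusted p = 0.0381). With 1 read worth 1.59 to 3.38 in LT and HT libraries, the values of these 2 genes rest on few reads there.

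From hexokinase to the triose phosphates, 3 of 9 genes were lower in HT mice than in PBS, Pfkm, Pfkfb1 and Tpi1, and 0 were higher. Hk2 encodes the main hexokinase of muscle. Hk2 had 2767, 3655 and 4722 in HT mice and 2843, 4301 and 5155 in PBS mice, a difference that missed the threshold (log2 fold change -0.22, SE 0.12, adjusted p = 0.147) but passed without PBS mouse C4 (log2 fold change -0.30, adjusted p = 0.0422). Against LT it passed only without HT mouse C60 (log2 fold change -0.33, adjusted p = 0.0441). Hk1 encodes the hexokinase of most other cells. Hk1 had 75.9, 109.6 and 121 in HT mice, 63, 76.8 and 105 in LT mice and 83.8, 89.8 and 114 in PBS mice. Neither Hk1 comparison passed, the one against LT by a narrow margin (log2 fold change 0.34, SE 0.13, adjusted p = 0.0509), and it passed in 10 of the alternatives, among them without C62 (log2 fold change 0.40, adjusted p = 0.0241). Gpi1 encodes the enzyme that interconverts glucose and fructose phosphates. Gpi1 had 6076, 8346 and 12088 in HT and 6256, 8199 and 9376 in PBS mice, and C54 and C55, low in so many of these genes, held its 2 highest HT values (11226 and 12088).

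Pfkm encodes the muscle phosphofructokinase, which catalyses the committed step of glycolysis. Pfkm had 24333, 35911 and 54454 in HT mice, 45669, 51051 and 52728 in LT mice and 40578, 57045 and 64264 in PBS mice. There were 6 HT mice below both the lowest PBS and the lowest LT mouse, and the other 2 (C37 and C60) lay within the PBS range and above the highest LT mouse. Pfkm was lower in HT than in PBS (log2 fold change -0.58, SE 0.13, adjusted p = 0.00116), also without C48, C54 and C55 (log2 fold change -0.40, adjusted p = 0.041), and lower than in LT (log2 fold change -0.42, SE 0.13, adjusted p = 0.0222), which did not hold without the 3 mice (log2 fold change -0.25, adjusted p = 0.328) or without C55 alone (log2 fold change -0.33, adjusted p = 0.075). Pfkl, the liver isoenzyme, ranged from 88.4 to 178 in HT and from 98 to 178 in PBS mice. The product of Pfkfb1 makes and removes the activator of phosphofructokinase. Pfkfb1 had 124, 574 and 859 in HT mice, 809, 995 and 1573 in LT mice and 600.1, 929 and 1157 in PBS mice. It was lower in HT than in PBS (log2 fold change -1.08, SE 0.26, adjusted p = 0.00179) and LT (log2 fold change -1.25, SE 0.26, adjusted p = 0.00124), the steepest fall of the 39 genes against LT, and both calls rested on C48, C54 and C55 (log2 fold change -0.48, adjusted p = 0.1, against PBS and -0.64, adjusted p = 0.0687, against LT without them). Pfkfb3 encodes the inducible relative of Pfkfb1. Pfkfb3 had 1867, 4205 and 11780.3 in HT mice and 801, 2486 and 4465 in PBS mice. Its 2 highest values in the study were those of the HT mice C60 and C62 (11780.3 and 8587), and with a wide spread in every group the difference did not pass (log2 fold change 0.81, SE 0.47, adjusted p = 0.181).

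Aldoa encodes the enzyme that splits fructose bisphosphate into triose phosphates. Aldoa had 148796, 185314 and 250301 in HT mice, 146785, 190996 and 217789 in LT mice and 152727, 200859 and 225851 in PBS mice. Of the 8 HT mice 6 lay within the PBS range (log2 fold change -0.06, SE 0.14, adjusted p = 0.771). Tpi1 (mm39 chromosome 6, 124787551 to 124791122), whose product interconverts those triose phosphates at the next step, behaved otherwise. Tpi1 had 10856, 22515 and 33949 in HT mice, 31292, 36732 and 42316 in LT mice and 34114, 39585 and 46832 in PBS mice. All 8 HT mice lay below the lowest PBS mouse, which was so for none of the other 38 genes, and 1.67% of all genes were like it (1.8% with all HT mice higher). Tpi1 was lower in HT than in PBS (log2 fold change -0.95, SE 0.16, adjusted p = 4.32e-05) and in LT (log2 fold change -0.80, SE 0.16, adjusted p = 0.000862). Against PBS it stayed lower without C48, C54 and C55 (log2 fold change -0.54, adjusted p = 0.00317), and against LT it then missed the threshold (log2 fold change -0.39, adjusted p = 0.0732).

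From Gapdh to pyruvate kinase 6 of 7 genes were lower in HT mice than in PBS, the highest share of any step, and 5 of 7 were lower than in LT. The muscle isoenzymes Pgam2 and Eno3 fell furthest. Pgam2 (mm39 chromosome 11, 5751637 to 5753797) encodes the muscle phosphoglycerate mutase. Pgam2 had 2312, 13537 and 18663 in HT mice, 16901, 20366 and 23865 in LT mice and 17077, 23285 and 26978 in PBS mice. C48, C54 and C55 were at 9103, 4715 and 2312, and the other 5 HT mice at 12436 to 18663. Pgam2 was lower in HT than in PBS (log2 fold change -1.20, SE 0.24, adjusted p = 0.000329) and LT (log2 fold change -1.01, SE 0.24, adjusted p = 0.00373). Leaving the 3 mice out took the log2 fold change to -0.54, adjusted p = 0.00228, against PBS, and to -0.35, adjusted p = 0.098, against LT.

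Eno3 (mm39 chromosome 11, 70548002 to 70553340) encodes the muscle enolase. Eno3 had 23052, 50215 and 85966 in HT mice, 73488, 90707 and 95946 in LT mice and 77654, 96450.2 and 115027 in PBS mice, and 7 of 8 HT mice lay below the lowest mouse of each of the other 2 groups. The remaining HT mouse, C37, lay within the ranges of both. Eno3 was lower in HT than in PBS (log2 fold change -1.02, SE 0.18, adjusted p = 6.37e-05) and LT (log2 fold change -0.90, SE 0.18, adjusted p = 0.000806), and without C48, C54 and C55 the call against PBS stayed (log2 fold change -0.60, adjusted p = 0.00565) and that against LT did not (log2 fold change -0.47, adjusted p = 0.0695). Pkm encodes pyruvate kinase. Pkm had 19106, 28464 and 44990.1 in HT mice, 34171, 38597 and 42934 in LT mice and 31785, 43601 and 49040.2 in PBS mice. In 6 HT mice the value was below the lowest PBS mouse, and Pkm was lower in HT than in PBS (log2 fold change -0.53, SE 0.13, adjusted p = 0.00189; without the 3 mice -0.38, adjusted p = 0.0469). Against LT the Pkm difference was small (log2 fold change -0.37, SE 0.13, adjusted p = 0.0348) and was lost on leaving out any of 7 single mice, among them C55 (log2 fold change -0.28, adjusted p = 0.116), and without the 3 mice (log2 fold change -0.22, adjusted p = 0.37).

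Gapdh encodes glyceraldehyde phosphate dehydrogenase and is often used as a reference gene. Gapdh had 5063, 5351 and 7967 in HT mice, 5831, 7397 and 9939.8 in LT mice and 5572, 7608 and 8570.1 in PBS mice. It was lower in HT than in PBS (log2 fold change -0.35, SE 0.10, adjusted p = 0.00935) and LT (log2 fold change -0.37, SE 0.10, adjusted p = 0.0118), with 7 HT values between 5063 and 6268 and the remaining mouse, C37, at 7967. Pgk1 encodes phosphoglycerate kinase. Pgk1 had 8798, 11670.1 and 13969.8 in HT mice, 12904, 14873 and 17005 in LT mice and 12879, 15124 and 16493 in PBS mice. It too was lower in HT than in PBS (log2 fold change -0.35, SE 0.09, adjusted p = 0.00343) and LT (log2 fold change -0.40, SE 0.09, adjusted p = 0.00257). For both genes all 4 calls were lost without C48, C54 and C55, with log2 fold changes of -0.29 and -0.31 for Gapdh and -0.20 and -0.25 for Pgk1. Eno1 encodes the enolase of most cells. Eno1 had 243, 381 and 507 in HT and 375, 444 and 506 in PBS mice. Its call against PBS (log2 fold change -0.34, SE 0.13, adjusted p = 0.0323) was lost on leaving out any of 4 PBS or 3 HT mice, with adjusted p up to 0.0877, and without C48, C54 and C55 (log2 fold change -0.24, adjusted p = 0.224). Pgam1 encodes the mutase of most cells. Pgam1 had 174, 214 and 308 in HT and 177, 204 and 237 in PBS mice, and was the only gene of these steps not called (log2 fold change 0.15, SE 0.16, adjusted p = 0.476).

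**Figure D3:**
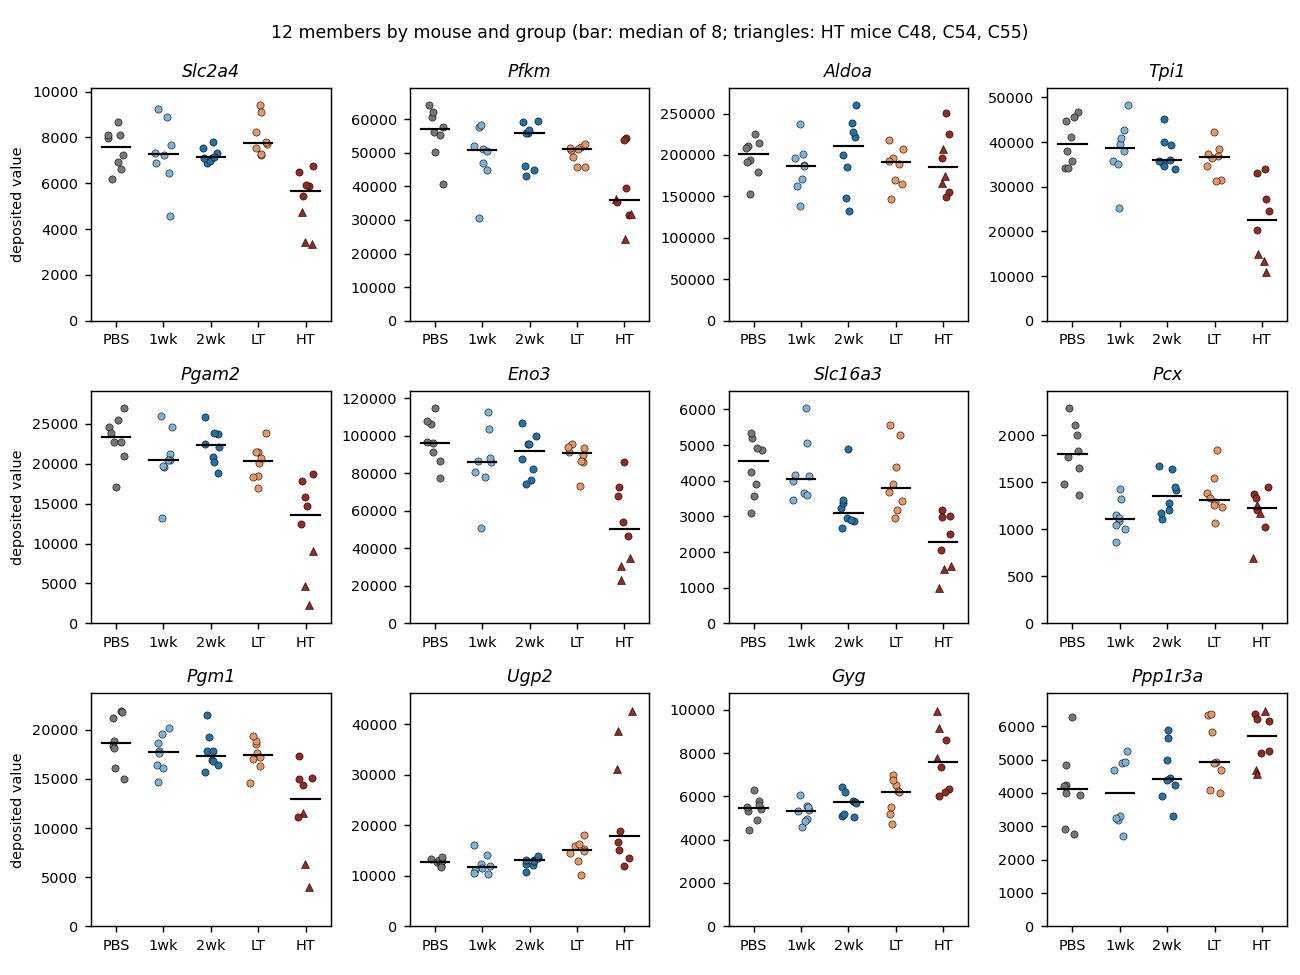
Deposited values of 12 of the genes are drawn by mouse in 5 groups, with the median of 8 as a bar, each axis from 0, and C48, C54 and C55 as triangles. Tpi1 is lower in all HT mice than in any PBS mouse, and Aldoa has 6 of 8 HT mice within the PBS range. Ugp2 reaches 42708 in C55 while 5 HT mice stay between 12029 and 18922, and Pcx has its lowest group median in 1wk mice (1108).

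Lactate is made from pyruvate by lactate dehydrogenase and leaves fast fibres mainly through the transporter encoded by Slc16a3, and 2 of these 4 genes were lower in HT. Slc16a3 (mm39 chromosome 11, 120839310 to 120849827) had 1005, 2279.9 and 3192 in HT mice, 2967, 3807 and 5572 in LT mice and 3084, 4551 and 5346 in PBS mice. There were 7 HT mice below the lowest PBS mouse and 5 below the lowest LT mouse. Slc16a3 was lower in HT than in PBS (log2 fold change -1.05, SE 0.18, adjusted p = 3.59e-05) and LT (log2 fold change -0.92, SE 0.18, adjusted p = 0.000505), and with Slc2a4 it was 1 of 2 genes that stayed called against LT without C48, C54 and C55 (log2 fold change -0.55, adjusted p = 0.0418). Against PBS it then had a log2 fold change of -0.67, adjusted p = 0.00277. Slc16a1 encodes the transporter that takes up lactate in oxidative fibres and other cells. Slc16a1 had 397, 554 and 1005 in HT mice and 319.9, 484 and 576 in PBS mice and did not pass (log2 fold change 0.40, SE 0.18, adjusted p = 0.0804), though it passed without C48 (log2 fold change 0.48, adjusted p = 0.0378). In 2wk mice its values were 370.2, 627 and 1015, with 2688, 3098 and 4898 for Slc16a3 in the same mice, and neither passed the unweighted test.

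Ldha encodes the muscle subunit of lactate dehydrogenase. Ldha had 16281, 30772 and 40801 in HT mice, 37947, 41429 and 45213 in LT mice and 34675, 43129 and 50824 in PBS mice. It was lower in HT than in PBS (log2 fold change -0.59, SE 0.13, adjusted p = 0.000964) and LT (log2 fold change -0.52, SE 0.13, adjusted p = 0.00608). Without C48, C54 and C55 neither held (log2 fold change -0.29, adjusted p = 0.0641 against PBS and -0.22, adjusted p = 0.269 against LT). Ldhb encodes the subunit of heart and slow fibres. Ldhb had 745, 1927 and 2827 in HT mice and 802, 3115 and 4283 in PBS mice (log2 fold change -0.67, SE 0.35, adjusted p = 0.14), and it was called lower only without PBS mouse C8 (log2 fold change -0.91, adjusted p = 0.0401). The mouse with the lowest Ldhb of its group was also the one with the lowest summed level of 10 slow fibre markers in PBS (C8), 1wk (C17), 2wk (C34) and LT (C57) mice, and in HT the 2 lowest Ldhb values were in C54 and C55 and the 2 lowest slow fibre sums in C48 and C54. The part of fibre makeup in Ldhb was not tested further.

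Glycogen synthesis was the only step with genes higher in HT, 3 of 8, and 2 of its genes were lower. Ugp2 (mm39 chromosome 11, 21271126 to 21321268) encodes UDP-glucose pyrophosphorylase. Ugp2 had 12029, 17833 and 42708 in HT mice, 10229, 15069 and 18122 in LT mice and 11719, 12792 and 13667 in PBS mice. The HT group fell into distant parts, with C48, C54 and C55 at 31156, 38726 and 42708 and the other 5 between 12029 and 18922. Ugp2 was higher in HT than in PBS (log2 fold change 0.73, SE 0.17, adjusted p = 0.00139) and LT (log2 fold change 0.54, SE 0.17, adjusted p = 0.0242), and without the 3 mice neither held (log2 fold change 0.24, adjusted p = 0.124 against PBS and 0.05, adjusted p = 0.859 against LT). Against LT it was also lost without LT mouse C43 (log2 fold change 0.46, adjusted p = 0.0568).

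Gyg encodes glycogenin, the protein on which a glycogen particle is started. Gyg had 6023, 7582 and 9959 in HT mice, 4717, 6220.2 and 6989.5 in LT mice and 4455, 5442 and 6298 in PBS mice. Of the 8 HT mice 6 lay above the highest PBS mouse. Gyg was higher in HT than in PBS (log2 fold change 0.49, SE 0.09, adjusted p = 0.000176), also without C48, C54 and C55 (log2 fold change 0.35, adjusted p = 0.0102), and higher than in LT (log2 fold change 0.34, SE 0.09, adjusted p = 0.00955), which was lost without them (log2 fold change 0.20, adjusted p = 0.237). Ppp1r3a encodes the subunit that brings protein phosphatase to glycogen in muscle. Ppp1r3a had 4573, 5703 and 6467 in HT and 2781, 4109.7 and 6281 in PBS mice. It was higher in HT than in PBS (log2 fold change 0.46, SE 0.15, adjusted p = 0.0138), and its call did not rest on the 3 mice, without which the log2 fold change was 0.53, adjusted p = 0.0261.

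Pgm1, the phosphoglucomutase that links glucose phosphates with glycogen in both directions, went the other way. It had 3993, 13002 and 17350 in HT mice, 14629, 17470 and 19391 in LT mice and 15014, 18612 and 21961 in PBS mice. Pgm1 was lower in HT than in PBS (log2 fold change -0.80, SE 0.17, adjusted p = 0.000637; without the 3 mice -0.38, adjusted p = 0.00992) and LT (log2 fold change -0.69, SE 0.17, adjusted p = 0.00506; without the 3 mice -0.27, adjusted p = 0.132). In C54 and C55 Pgm1 was at 6386 and 3993 while Ugp2, the next enzyme on the way to glycogen, had its highest values of the study. Gys1 encodes the muscle glycogen synthase. Gys1 had 1975, 3056 and 3837 in HT mice, 3494, 3905 and 5688 in LT mice and 2708, 4017 and 5795 in PBS mice. It was lower in HT than in PBS (log2 fold change -0.45, SE 0.13, adjusted p = 0.00944) and LT (log2 fold change -0.48, SE 0.13, adjusted p = 0.0113), and without C48, C54 and C55 neither held (log2 fold change -0.27, adjusted p = 0.18, against PBS and -0.30, adjusted p = 0.23, against LT).

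The other 3 genes of this step were not called. Gbe1 encodes the branching enzyme. Gbe1 had 650.4, 1068 and 1624 in HT and 494, 734 and 1619 in PBS mice and, of all alternatives, passed only without PBS mouse C10 (log2 fold change 0.53, adjusted p = 0.0359). Ppp1r3c encodes a glycogen-targeting subunit of many tissues. PBS mice had 7009, 12261 and 24760.5, 2wk mice 3866, 6761 and 20392, LT mice 12292, 18324 and 31429.6 and HT mice 5898, 17008 and 20493. Of the 8 2wk mice 6 were at 7531 or less, and its log2 fold change in 2wk, -0.77 with a standard error of 0.31, was the lowest of the 39 genes there, with an adjusted p of 0.915. Pgm2 encodes a relative of the Pgm1 enzyme. Pgm2 had 25.3, 39.5 and 60.8 in HT and 24.3, 28.5 and 44.9 in PBS mice, values of few reads in the HT libraries. It was called higher only without HT mouse C37 (log2 fold change 0.45, adjusted p = 0.0436).

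In glycogen breakdown, 2 of 4 genes were lower in HT, both of them subunits of phosphorylase kinase, the enzyme that switches phosphorylase on. Phkg1 encodes its catalytic subunit in muscle. Phkg1 had 2596, 6862 and 9701 in HT mice, 8188, 9055 and 10917 in LT mice and 7096, 9374 and 10639.6 in PBS mice. Phkg1 was lower in HT than in PBS (log2 fold change -0.64, SE 0.16, adjusted p = 0.0022) and LT (log2 fold change -0.64, SE 0.16, adjusted p = 0.00481). Phka1 encodes the muscle regulatory subunit. Phka1 had 3759, 11812 and 16407 in HT mice, 13731, 15411 and 19139 in LT mice and 12230.2, 14444 and 17932 in PBS mice. Phka1 was lower in HT than in PBS (log2 fold change -0.52, SE 0.16, adjusted p = 0.0136) and LT (log2 fold change -0.60, SE 0.16, adjusted p = 0.00995). The fall of both was carried by C48, C54 and C55. Without them Phkg1 had log2 fold changes of -0.26 against PBS and -0.26 against LT, and Phka1 had -0.13 and -0.20, none of which passed. Phkb encodes another regulatory subunit. Phkb had 4941, 7015 and 8803 in HT and 5990.1, 7099.7 and 8767 in PBS mice (log2 fold change -0.06, SE 0.11, adjusted p = 0.676). Pygm itself, the phosphorylase, had 49225, 58972 and 84455 in HT and 51630.1, 79649 and 92836 in PBS mice and did not pass (log2 fold change -0.27, SE 0.14, adjusted p = 0.125), except without PBS mouse C4 (log2 fold change -0.35, adjusted p = 0.0425).

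At the branches, 3 of 4 genes were lower in HT than in PBS. Pcx (mm39 chromosome 19, 4560500 to 4671781), pyruvate carboxylase, which makes oxaloacetate from pyruvate, was, apart from the calls with library weights given above, the only gene called in a comparison without HT mice. PBS mice had 1365, 1797 and 2292, 1wk mice 863, 1108 and 1426, 2wk mice 1109.8, 1351 and 1675, LT mice 1069, 1308 and 1847 and HT mice 696, 1229.6 and 1454. Of the 8 1wk mice 7 lay below the lowest PBS mouse, C4, and the highest, C19, lay just above it. Pcx was lower than in PBS at 1wk (log2 fold change -0.68, SE 0.12, adjusted p = 0.00114) and in HT (log2 fold change -0.62, SE 0.12, adjusted p = 0.000312; without the 3 mice -0.50, adjusted p = 0.00616). In 2wk (log2 fold change -0.40, SE 0.12, adjusted p = 0.414) and LT (log2 fold change -0.40, SE 0.12, adjusted p = 0.145) it missed the threshold, and the difference between HT and LT did not pass either (log2 fold change -0.22, SE 0.12, adjusted p = 0.204).

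Gpd1 encodes glycerol phosphate dehydrogenase, which draws triose phosphate off toward glycerol and carries reducing power to mitochondria. Gpd1 had 2265, 6938 and 10552 in HT mice, 9247, 10541 and 12569 in LT mice and 8472, 10749 and 13878 in PBS mice. Gpd1 was lower in HT than in PBS (log2 fold change -0.87, SE 0.19, adjusted p = 0.000621; without the 3 mice -0.39, adjusted p = 0.033) and LT (log2 fold change -0.81, SE 0.19, adjusted p = 0.0029; without the 3 mice -0.33, adjusted p = 0.142). Fbp2 encodes the muscle fructose bisphosphatase. Fbp2 had 739, 1128 and 1704 in HT and 965, 1495 and 2237 in PBS mice. Its call against PBS (log2 fold change -0.45, SE 0.17, adjusted p = 0.0356) was lost on leaving out any of 4 PBS or 3 HT mice, with adjusted p up to 0.0926, and without C48, C54 and C55 (log2 fold change -0.30, adjusted p = 0.268). Pdha1 encodes a subunit of the pyruvate dehydrogenase that feeds pyruvate to the mitochondrial cycle. Pdha1 had 6223, 9014 and 10337 in HT, 8607, 10459 and 12149 in LT and 7432, 9664 and 10673 in PBS mice. Against LT it missed the threshold by a narrow margin (log2 fold change -0.30, SE 0.11, adjusted p = 0.0505), and it passed in 14 of the alternatives, among them without C60 (log2 fold change -0.35, adjusted p = 0.0272).

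**Figure D4:**
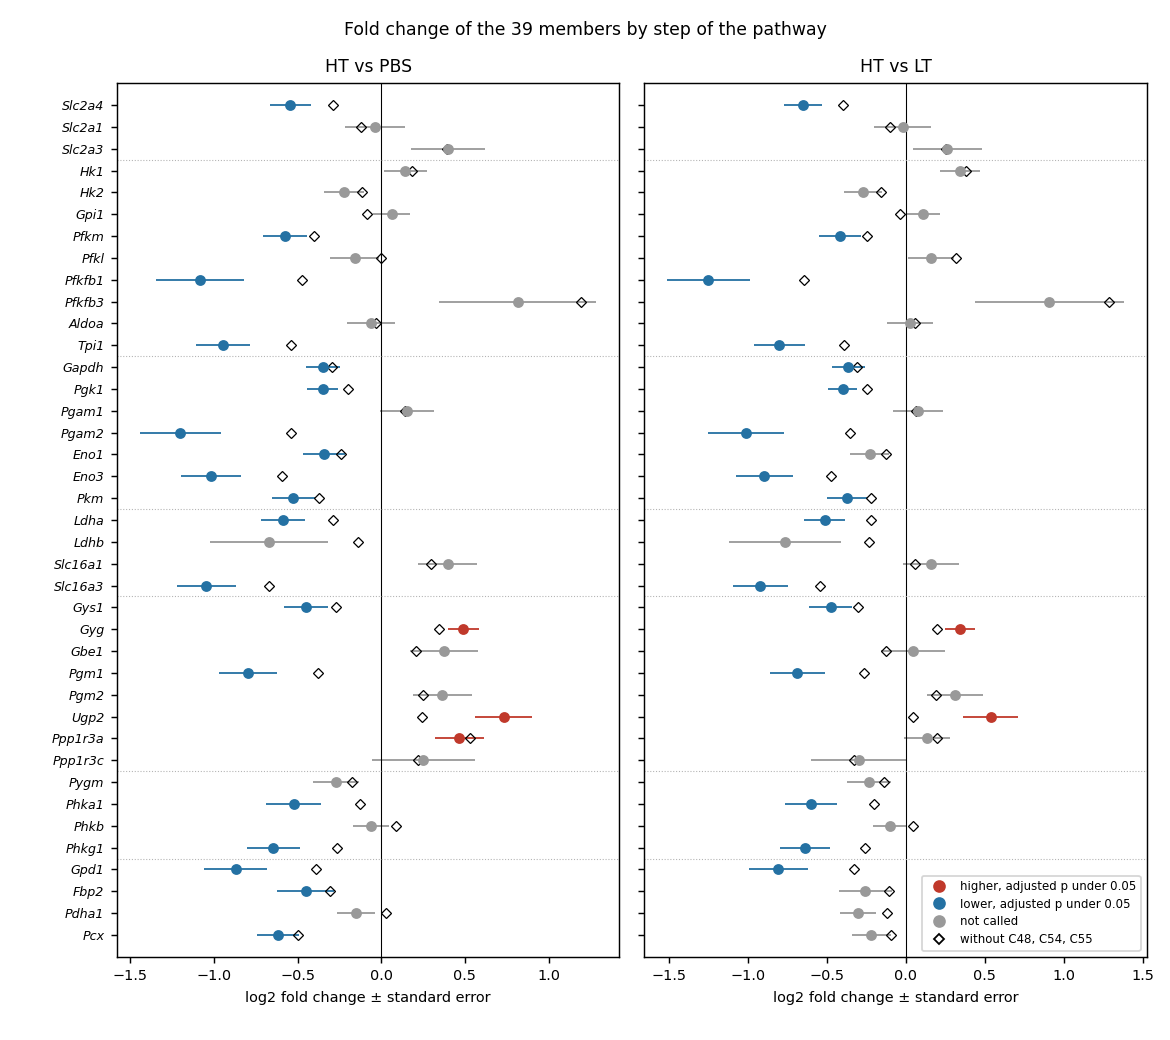
Points are log2 fold changes of the 39 genes, HT against PBS on the left and HT against LT on the right, with bars of 1 standard error, coloured where the adjusted p was under 0.05, and diamonds are the values without C48, C54 and C55. The diamonds of most called genes lie nearer to 0, as for Pgam2 (-1.20 with all 8 HT mice and -0.54 without the 3), while those of Ppp1r3a, Gapdh and Pcx lie close to the full value.

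Most pairs here join a muscle gene and one of other cells. The genes of 2 pairs, Ldhb with Ldha and Slc16a1 with Slc16a3, also differ between fibre types. The ratio of a pair within a mouse needs no scaling between libraries. These log2 ratios are a description with no test. Pgam1 over Pgam2 was -6.60, -5.87 and -2.98 (lowest, median and highest) in HT mice and -7.17, -6.85 and -6.54 in PBS mice. Eno1 over Eno3 was -7.58, -7.27 and -6.27 in HT mice and -7.87, -7.83 and -7.51 in PBS mice. In both pairs the HT median lay above the highest PBS mouse, and without C48, C54 and C55 the HT medians were -6.16 and -7.49. This was not particular to HT. The 1wk medians, -6.30 and -7.35, also lay above the highest PBS mouse in both pairs, as did the LT median of Pgam1 over Pgam2 (-6.45), while the LT median of Eno1 over Eno3 (-7.66) and both 2wk medians (-6.68 and -7.61) did not. Pfkl over Pfkm was -8.59, -8.17 and -8.05 in HT and -9.09, -8.73 and -8.15 in PBS mice. Pgm2 over Pgm1 was -9.42, -8.30 and -6.04 in HT and -9.67, -9.43 and -8.49 in PBS mice. Slc16a1 over Slc16a3 was -2.46, -2.14 and 0.00 in HT and -3.93, -3.18 and -2.76 in PBS mice. Of the 8 ratios, Slc16a1 over Slc16a3 alone had no HT mouse within the PBS range, and in C55 its 2 genes had the same value, 1005. A shift of this pair was not particular to HT either, as its 2wk median (-2.33) also lay above the highest PBS mouse. Its 1wk (-3.03) and LT (-2.86) medians did not. The ratio of Hk2 to Hk1 was 4.54, 5.08 and 5.66 in HT and 5.06, 5.52 and 5.69 in PBS mice. Slc2a1 over Slc2a4 was -6.64, -6.14 and -4.38 in HT and -6.85, -6.31 and -6.17 in PBS mice, and Ldhb over Ldha was -4.79, -4.14 and -3.40 in HT and -5.93, -3.82 and -3.23 in PBS mice. The ranges of both groups overlapped in these last 3 pairs.

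**Figure D5:**
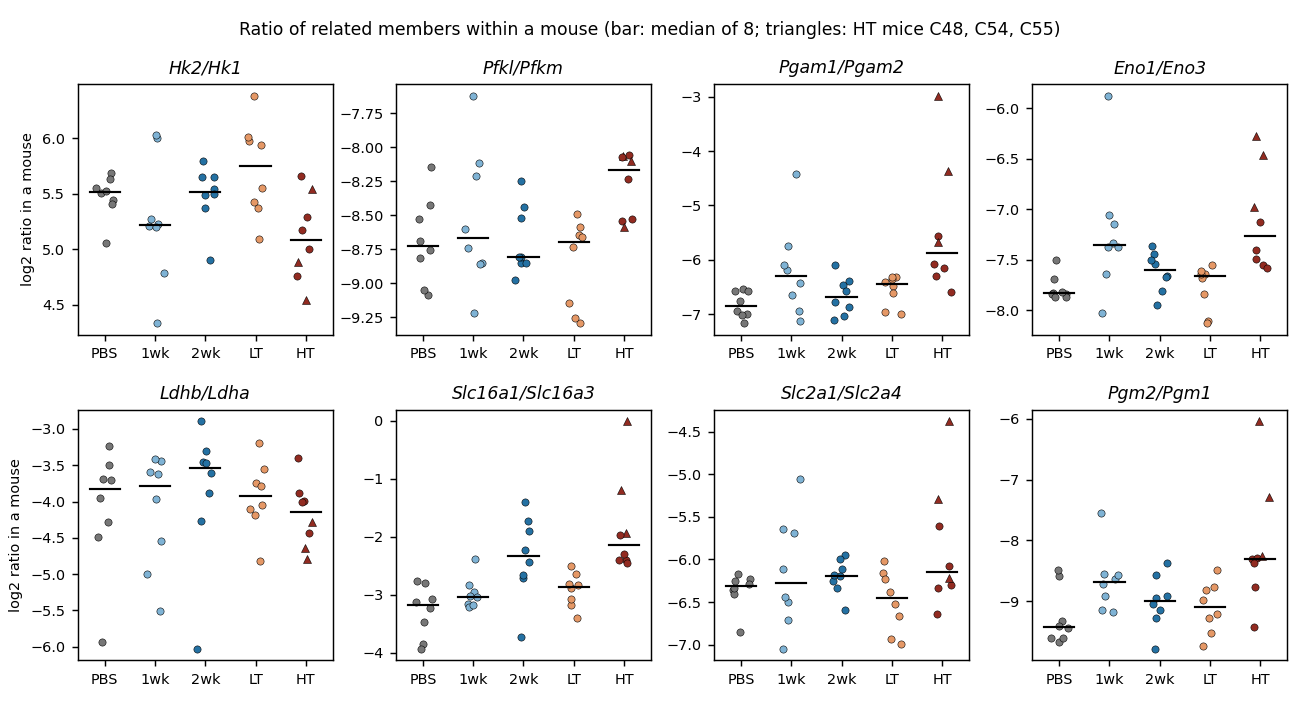
Each point is the log2 ratio of 2 genes in 1 mouse, with the median of 8 as a bar and C48, C54 and C55 as triangles. HT mice reach the highest ratios for Pgam1 over Pgam2 (-2.98), Slc16a1 over Slc16a3 (0.00) and Pgm2 over Pgm1 (-6.04), and the 1wk mouse C17 is the highest of its group in 5 of the 8 panels.

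Among 1wk mice, C17 stood at the edge of its group in many of these genes. It had the highest 1wk value of Pgam1 (619), Eno1 (866), Hk1 (164) and Pgm2 (78.7) and the lowest of Pfkm (30625), Eno3 (50889), Pgam2 (13235), Gys1 (2271) and Phkg1 (5119). The summed level of 11 macrophage markers in C17 was 12117, the highest of the 40 mice, with a 1wk median of 2079, and its fibroblast sum was 20971, also the highest. Their part in the values of C17 was not tested. The 1wk call of Pcx stood without C17 (log2 fold change -0.63, adjusted p = 0.00507).

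Spread within a group differed greatly between the genes. Among the 8 PBS mice the coefficient of variation was 9.32% for Pgk1 and 5.09% for Ugp2, but 52% for Pfkfb3, 44.8% for Ppp1r3c and 40.8% for Ldhb. In HT mice it was 51.3% for Ugp2, 50.6% for Pgam2 and 17.1% for Pgk1. At 1wk the mouse C20 had the lowest Pfkfb3 of the study (354) and the highest Ppp1r3c of its group (27195).

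Genes around the pathway were read from lists of related genes, with 16.5% of all genes higher and 16.5% lower in HT against PBS as the background. Without C48, C54 and C55 this background was 7.5% higher and 8.63% lower. Against LT it was 9.94% higher and 10.5% lower with all HT mice kept, and 1.22% and 1.96% without the 3 mice. None of their genes was called in 1wk, 2wk or LT mice. In the first 3 lists no gene was called higher against PBS. Of 12 other glycolysis isoenzymes measured (of 19 listed) 0 were higher and 2 lower in HT mice (median log2 fold change -0.12), Gpd2 (log2 fold change -0.50, SE 0.16, adjusted p = 0.0186) and Bpgm (log2 fold change -0.44, SE 0.15, adjusted p = 0.025), and without C48, C54 and C55 both counts were 0. Against LT 0 were higher and 1 lower, and both lower counts were near the shares of all genes. Of 12 genes for the entry of pyruvate into mitochondria 0 were higher and 4 lower (median -0.27), and against LT 0 were higher and 7 lower. Mpc2, a subunit of the mitochondrial pyruvate carrier (log2 fold change -0.57, SE 0.11, adjusted p = 0.000162), and Dlat, the transacetylase of pyruvate dehydrogenase (log2 fold change -0.54, SE 0.14, adjusted p = 0.00419), led them, followed by Mpc1 (log2 fold change -0.27, SE 0.08, adjusted p = 0.00621) and Pdhb (log2 fold change -0.27, SE 0.09, adjusted p = 0.0264). Without the 3 mice 1 of the 12 was lower than in PBS. Of 11 genes of gluconeogenesis and the malate shuttle 0 were higher and 4 lower (median -0.23; against LT also 0 and 4), led by the malate dehydrogenase Mdh2 (log2 fold change -0.56, SE 0.13, adjusted p = 0.00119) and the carrier Slc25a11 (log2 fold change -0.56, SE 0.13, adjusted p = 0.0013), followed by Mdh1 (log2 fold change -0.51, SE 0.16, adjusted p = 0.0121) and the carrier Slc25a12 (log2 fold change -0.36, SE 0.12, adjusted p = 0.0237). Without the 3 mice 0 of the 11 were lower.

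More genes of the next lists were higher than lower. Of 11 pentose phosphate genes, which lead glucose phosphate off to ribose and reducing power, 4 were higher and 0 lower (median 0.27; against LT also 4 and 0). They were Pgd (log2 fold change 0.72, SE 0.18, adjusted p = 0.00255), Tkt (log2 fold change 0.78, SE 0.20, adjusted p = 0.00273), Prps1 (log2 fold change 0.30, SE 0.08, adjusted p = 0.00349) and G6pdx (log2 fold change 0.63, SE 0.18, adjusted p = 0.00556). Without C48, C54 and C55 2 were higher and 1 lower. Of 23 genes of GLUT4 traffic and the insulin relay 9 were higher and 0 lower (median 0.27; against LT 3 and 0), among them the kinase Akt1 (log2 fold change 0.72, SE 0.18, adjusted p = 0.00257), the insulin receptor Insr (log2 fold change 0.41, SE 0.11, adjusted p = 0.00458), the small GTPase Rac1 (log2 fold change 0.27, SE 0.07, adjusted p = 0.00524) and Arrdc4, an arrestin known to limit glucose uptake (log2 fold change 0.70, SE 0.19, adjusted p = 0.00579), with 3 higher without the 3 mice. Their direction was opposite to that of Slc2a4 itself. Of 24 hypoxia and glucose-sensing regulators 10 were higher and 5 lower (median 0.08; 7 and 3 without the 3 mice; against LT 6 and 3). Hif1a (log2 fold change 0.75, SE 0.10, adjusted p = 8.82e-07) and its partner Arnt (log2 fold change 0.74, SE 0.15, adjusted p = 0.00044), the factors that bind the hypoxia core, were higher, as was Bnip3 (log2 fold change 1.01, SE 0.21, adjusted p = 0.000462), whereas the glucose-responsive factor Mlxipl was lower (log2 fold change -0.73, SE 0.15, adjusted p = 0.000441). Among those of the 39 genes with a matched promoter, the hypoxia core stood in 9 of 17 lower in HT, 2 of 3 higher and 10 of 16 not called. Ldha (log2 fold change -0.59), Pgk1 (-0.35) and Slc16a3 (-1.05) were among the 9. The activity of these factors was not tested.

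Of 21 other glycogen genes 4 were higher and 3 lower in HT mice, near the shares of all genes (median -0.08; 3 and 2 without the 3 mice). Against LT 2 were higher and 2 lower. The synthase kinase Gsk3b (log2 fold change 0.58, SE 0.14, adjusted p = 0.0021) and the liver phosphorylase Pygl (log2 fold change 0.87, SE 0.22, adjusted p = 0.00248) were higher, and Epm2a, the glycogen phosphatase laforin (log2 fold change -0.68, SE 0.14, adjusted p = 0.000442), and Prkag3, a muscle subunit of the energy sensor AMPK (log2 fold change -1.48, SE 0.33, adjusted p = 0.000735), were lower. Of 10 other sugar and monocarboxylate transporters 1 was higher and 4 lower (median -0.13; 1 and 2 without the 3 mice). Against LT 1 was higher and 2 lower. Emb, which encodes a partner protein of lactate transporters, was higher (log2 fold change 1.57, SE 0.34, adjusted p = 0.000583), and the glucose phosphate carrier Slc37a4 (log2 fold change -1.0, SE 0.20, adjusted p = 0.000271) and the transporters Slc2a8 (log2 fold change -0.46, SE 0.12, adjusted p = 0.00343) and Slc2a12 (log2 fold change -0.62, SE 0.19, adjusted p = 0.0109) were lower. Pygl is also expressed in blood cells, whose markers were higher in the same mice, and their part in its rise was not tested.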

How the data were processed

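Poly(A) RNA of the gastrocnemius of 40 mice was sequenced with 50-base reads. Per the labels and methods, the authors aligned reads with STAR 2.7.8a, quantified RefSeq genes by expectation maximisation in Partek Flow, kept genes over a minimum of 30 reads and divided the estimated counts by DESeq2 median-ratio size factors. The deposited signal is therefore a scaled estimated count (99.6% of values not whole), which no count test fits. Builds mm10 and mm39 are both listed. The table's value columns were all matched to mice by their numbers. Sheets with the authors' own group comparisons (p-values, fold changes and gene lists) and pathway results were not used.

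Fold changes came from limma 3.58.1 in R 4.3.3 (lmFit and eBayes with trend), fitted to log2(value + 1) for the 5 groups together without covariates, for 1wk, 2wk, LT and HT against PBS and HT against LT. Benjamini-Hochberg adjustment ran over all 12573 genes at 0.05, with no filter. The fit was tested on simulated data. Every one of the 39 genes was named. From each list of neighbouring genes up to 4 called in HT against PBS with the smallest adjusted p were named. Members and lists were chosen with earlier results of these data known, as was the removal of C48, C54 and C55.

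Depth was estimated from the steps between low values, and the shallower LT and HT libraries give less precise values of low genes. The alternatives were a pseudocount of 5, a minimum mean value of 20, fits of 2 groups, library weights, quantile and upper-quartile scaling, robust eBayes, each mouse left out in turn, and C48, C54 and C55 left out together. Transcript lengths and gene positions are from GENCODE vM39 (mm39). Tables were handled with Python 3.11.15, numpy 2.4.6 and pandas 2.3.3, and figures with matplotlib 3.10.9.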

Additional observations from a re-analysis of the deposited data

Results flagged for a closer look

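In 12 of the 195 combinations of a gene and a group (6.15%), the highest or the lowest of 8 mice lay so far from the next that its gap, as a share of the group's range, passed Dixon's critical value. Chance alone gives about 1 in 20. There were 6 in 1wk, 2 each in 2wk, LT and HT, and 0 in PBS mice.

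The 1wk mouse C17 accounted for 5 of the 12. It was highest in Pgam1 (619.14, with 368.1 in the next mouse), Eno1 (866.46 and 610.3) and Pgm2 (78.66 and 51.74), and lowest in Gys1 (2271 and 3670) and Phkg1 (5119 and 8187). The sixth in 1wk was Pfkfb3, the inducible activator enzyme of phosphofructokinase, at 6696 in C14 with 3068 in the next mouse. In 2wk mice C34 was highest in Slc16a3, the lactate exporter (4898 and 3465), and lowest in Pdha1 of pyruvate dehydrogenase (9429 and 10601). In LT mice Pfkfb1 was highest in C51 (1573 and 1032), and Eno3, the muscle enolase, was lowest in C39 (73488 and 85976). In HT mice C37 was highest in Gapdh (7967 and 6268) and lowest in Ppp1r3c, a glycogen-targeting subunit (5898 and 13937).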

How the results depend on the processing

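None of the 39 genes changed direction in a comparison where it was called, under any alternative. Of 9360 single-gene values under alternatives 9237 kept their side of the threshold, 85 lost it and 38 gained it, and of 480 counts 466 stayed within 1.5 times. Without C48, C54 and C55 the genes lower in HT against PBS were 9 in place of 19, and against LT 0 were higher and 2 lower in place of 2 and 16. Of the calls, 11 of 22 against PBS and 2 of 18 against LT were kept without the 3 mice. With only HT and LT in the fit 0 were higher and 7 lower, and with library weights 0 and 4. Quantile scaling gave 4 higher, Aldoa among them (log2 fold change 0.33, adjusted p = 0.0268). Library weights also gave 1 gene higher at 1wk, 1 higher and 2 lower at 2wk and 1 lower in LT, in place of 0 each. Leaving out 1 mouse gave 3 to 4 higher and 17 to 21 lower in HT against PBS, and 1 to 3 higher (1 without HT mouse C54 or C55) and 14 to 18 lower against LT. Over all genes, HT against LT called 1250 higher and 1314 lower, but 197 and 327 with 2 groups in the fit, 135 and 225 with weights and 154 and 246 without the 3 mice. HT against PBS called 2069 and 2071, but 1249 and 1198 with 2 groups and 943 and 1085 without the 3 mice. Weights called 468 and 261 genes at 1wk (19 and 47 unweighted), 148 and 94 at 2wk (4 and 6) and 110 and 178 in LT (31 and 49). With 2 groups 31 were higher at 1wk, and without the 3 mice 54 and 80 at 1wk and 82 and 114 in LT. No paired analysis was possible because no mouse number was shared between groups. Depth limits the low genes (Pgm2, Slc2a1, Slc2a3, Hk1 and Pfkl) in LT and HT libraries. The causes of these changes were not tested.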
